A study of Mus musculus with 12 samples.

Results

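The genes described here are 48 mouse genes that carry out DNA replication or supply its deoxynucleotides, chosen by name from the 38127 genes of the count tables. They cover the origin recognition complex, the licensing factors and their inhibitor, the MCM2-7 helicase, the factors that switch the helicase on, the DDK kinase, the sliding clamp and its loader, the replicative polymerases, replication protein A, Okazaki fragment maturation and deoxynucleotide synthesis. RNA-seq was done on populations sorted from C57BL/6 fetal liver (C57BL/6J in the study's methods) after magnetic depletion of Ter119+ and CD45+ cells, with 3 libraries per group and no genetic change or treatment in any group. Independent litters are stated for the E14.5 groups only, so the p-values at E18.5 measure the spread between these libraries, which may be technical. At embryonic day (E) 14.5 the groups were P2 (labelled kit-14), the Ter119-CD45-CD54-CD31-Kit+CD24+ cells that the study placed among erythroid progenitors, the CD54+CD31- cells (CD54-14), the gate taken for hepatoblasts, and the CD54+CD31+ endothelial cells (CD31-14), called CD31+ here. The last group was CD54+CD31- cells at E18.5 (CD54-18). The comparisons show how the replication genes were set in P2 against the other 2 populations of the same age, between those 2, and between the 2 ages of CD54+CD31- cells. Every group is defined by surface markers, so each library is the average of whatever cells its gate held.

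A cell copies its genome once per division, in S phase. The origin recognition complex, Cdc6 and Cdt1 load the MCM2-7 ring onto DNA in G1, and the DDK kinase, Cdc45 and the GINS complex then turn the ring into a moving helicase. Polymerase alpha with primase starts each strand, polymerases delta and epsilon extend it on the PCNA clamp, and ribonucleotide reductase and thymidylate synthase provide the building blocks; many of these genes are transcribed at the start of S phase by E2F factors, and the fetal liver is a tissue of rapid erythroid and hepatic growth.

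The libraries held 40714017 to 64368883 counts, of which 10.8 to 23.1% fell on only 3 genes, Cdk8, Zc3h7a and Il1rapl1. A level here is in CPM, the count relative to the library total after TMM scaling over the 12 libraries. Fold changes use TMM factors within the libraries of their own fit. Over all genes tested, the log2 ratio of mean levels was therefore higher than the fold change by a median of 0.22 in P2 against CD54+CD31- cells, 0.20 against CD31+ cells, 0.02 between those 2 and 0.06 at E18.5 against E14.5. The summed level of 10 hepatoblast markers was 67793 to 76870 CPM in CD54+CD31- cells at E14.5 and at most 909 CPM in P2 and CD31+ cells, that of 10 endothelial markers was 9703 to 9949 CPM in CD31+ cells, and that of 10 erythroid markers was 2918 to 3205 CPM in P2 against at most 618 CPM elsewhere. Alas2, a defining erythroid marker, was listed at 0 in every library, but none of its 2403 exon bases lies outside the spans of other genes, so this is no measure of its RNA. P2 replicate 2 held 440 CPM of endothelial markers, against 68.2 and 124 CPM in the other P2 libraries. The E18.5 libraries went against their label in part: 10 lung epithelial markers summed to 22166, 9889 and 10182 CPM there, against at most 8.21 CPM in any other library, 10 mesenchymal markers to 4406 to 4799 CPM, and the hepatoblast markers to 5964 CPM in replicate 1 but 39850 and 51750 CPM in replicates 2 and 3. The counts and medians of each gene list at E18.5, and the range of change for the genes named there, are therefore also given without replicate 1.

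Cdt1, Gins2 and Tk1 were listed at 0 in all 12 libraries, so 45 of the 48 genes could be measured. Cdt1, which brings the MCM ring to the origin, and Gins2, a subunit of GINS, lie on chromosome 8, and Tk1, the thymidine kinase of the salvage pathway, lies on chromosome 11. In the GENCODE vM21 annotation of GRCm38, Cdt1 and Gins2 lie inside the span of the read-through gene Gm20388, and Tk1 inside that of Gm20708. This was general: of 1027 protein-coding genes with no base outside the spans of other genes, 1008 (98.1%) were listed at 0, against 11.5% of the other 20691. Genes inside another span were at 0 on the same strand (98.8%) as on the opposite strand (98%). Ubiquitous genes such as B2m, Cox4i1 and Rpl13 were also listed at 0, and their overlaps with other spans are not given here. By contrast, of 62 genes whose exons were wholly covered by exons of other genes but whose introns were not, only 1 was at 0. The tables thus behave as counts of reads over whole gene spans, introns included, with reads in stretches shared by 2 genes assigned to neither. The zeros of Cdt1, Gins2 and Tk1 are no measure of their RNA. Of the 45 measured genes, 33 had every exon base outside other genes and 40 had over 90%. The lowest were Orc2, for which 908 of 3857 exon bases (23.5%) lay outside Nif3l1, so that reads over the rest of its exons were left out, and Rfc2, with 71.7%.

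E2F sites are the best known shared feature of these promoters, so the bases before the transcription start were read for the 40 members with a window in the RefSeq table (GRCm38.p6). The words searched were TTTCCCGC, TTTCGCGC, TTTGCCGC and TTTGGCGC on either strand, within 250 bases before the start. They were found for 9 of the 40 members (22.5%), namely Orc1, Orc3, Cdc6, Mcm5, Mcm6, Mcm7, Gins3, Rfc3 and Pola1, and for 583 of all 27025 genes with a window (2.16%). The windows include bases inside annotated exons, for the members as for all genes. Only for Cdc6, Mcm5, Mcm6 and Pola1 did a word lie in the longest stretch of the window free of exons. A CCAAT box (CCAAT) was present for 23 members (57.5%) and 37.5% of all genes, and the cell cycle homology region (TTTGAA or TTCGAA) for 8 members (20%) and 19.6% of all genes. The sequences below are those of the 3 members that had the largest rise in P2 over CD54+CD31- cells among those with an E2F word outside any annotated exon (Cdc6, Mcm5 and Pola1) and of Mcm10, which rose more and held none; the E2F word of Orc1 lies in an exon and is not shown. Capitals mark the E2F words, and each run ends at the base before the start in the RefSeq table. For Cdc6 that start lies inside the GENCODE gene, whose own start is at 98907801, so the 169 bases shown are intronic in that annotation and do not precede the gene's first annotated start.
Cdc6: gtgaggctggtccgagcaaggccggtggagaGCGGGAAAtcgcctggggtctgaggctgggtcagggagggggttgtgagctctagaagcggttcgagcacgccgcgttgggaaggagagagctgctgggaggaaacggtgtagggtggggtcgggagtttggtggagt
Mcm5: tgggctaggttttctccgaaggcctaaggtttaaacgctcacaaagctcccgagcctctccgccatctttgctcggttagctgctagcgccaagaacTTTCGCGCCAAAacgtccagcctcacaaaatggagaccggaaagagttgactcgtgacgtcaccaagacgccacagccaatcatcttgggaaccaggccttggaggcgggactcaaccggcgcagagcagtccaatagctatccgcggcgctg
Pola1: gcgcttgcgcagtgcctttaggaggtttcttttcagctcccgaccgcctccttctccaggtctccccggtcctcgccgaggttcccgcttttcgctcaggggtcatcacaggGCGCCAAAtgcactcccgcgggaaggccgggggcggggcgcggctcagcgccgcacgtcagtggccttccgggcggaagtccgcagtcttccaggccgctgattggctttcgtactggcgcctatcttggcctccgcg
Mcm10: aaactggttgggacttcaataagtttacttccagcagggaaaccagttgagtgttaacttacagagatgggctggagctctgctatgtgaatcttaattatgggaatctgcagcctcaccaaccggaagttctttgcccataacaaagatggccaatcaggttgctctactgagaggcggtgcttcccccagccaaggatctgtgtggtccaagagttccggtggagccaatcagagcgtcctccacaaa
The Cdc6 bases are chr11:98907982-98908150 on the plus strand, those of Mcm5 chr8:75109259-75109508 on the plus strand, those of Pola1 chrX:93632156-93632405 on the minus strand and those of Mcm10 chr2:5012792-5013041 on the minus strand. In Mcm5 the words on opposite strands overlap and begin 153 and 149 bases before the start, and in Cdc6 and Pola1 the single word begins 138 bases before the RefSeq start, which for Cdc6 is the internal one. A match describes the letters only, and no match says only that these letters are not in the window.

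In all 45 measured genes the mean level was highest in P2 and lowest in CD54+CD31- cells at E18.5. How many of all genes held this order was not counted. The summed level of the members was 10100.3, 9278 and 10107 CPM in the 3 P2 libraries, 3131, 3885 and 3528 CPM in CD54+CD31- cells at E14.5, 3187, 3470 and 3228 CPM in CD31+ cells, and 820.0, 1186 and 1143 CPM at E18.5. Thus P2 libraries lay above all others and E18.5 libraries below all others, while the CD54+CD31- and CD31+ libraries of E14.5 overlapped. The P2 mean was 2.80 times that of CD54+CD31- cells and 2.98 times that of CD31+ cells at E14.5, and the CD54+CD31- mean was 3.35 times higher at E14.5 than at E18.5. With levels scaled within each fit, the P2 ratios were 2.40 and 2.60. In these bulk samples, fewer replicating cells and less RNA per cell cannot be told apart.

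**Figure D1:**
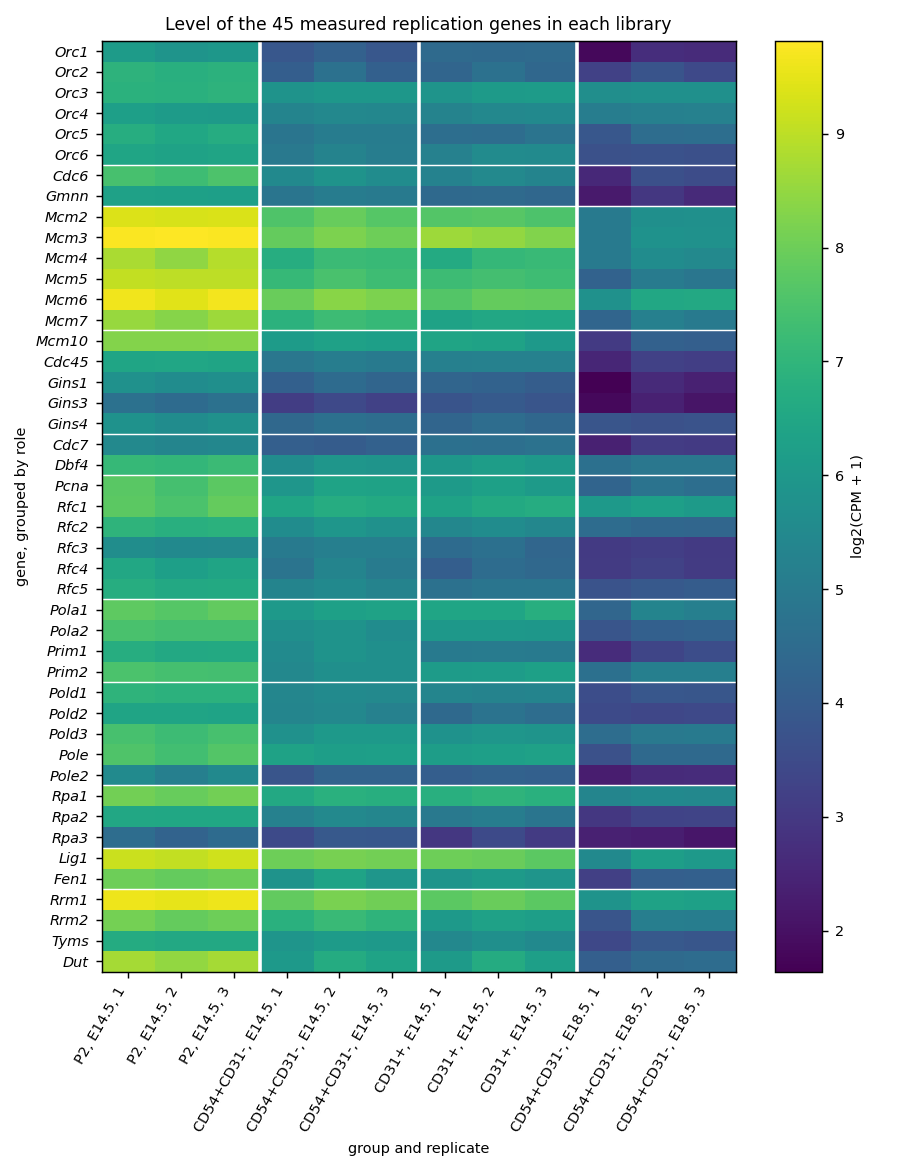
Level of each of the 45 measured genes, as log2(CPM + 1) by colour, in the 12 libraries (columns, by group and replicate), with genes in rows ordered by role and white lines between roles and groups. The 3 P2 columns are the brightest in every row and the E18.5 columns the darkest; Mcm3, Mcm6, Rrm1 and Mcm2 are the brightest rows in P2, on a scale that is not per gene length.

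P2 expressed nearly the whole replication set above CD54+CD31- cells of the same age. Of the 48 members, 44 rose, none fell, Rfc3 did not pass the test and 3 were not tested; 33 rose more than 2-fold. Over all 15461 genes tested, 33.8% were called higher, 36.1% lower, and 16% higher by more than 2-fold. The median log2 fold change of the members was 1.19, against -0.01 over all genes, and ranged from 0.22 (Rfc3) to 2.37 (Orc2). Calls are those of edgeR (quasi-likelihood) at a Benjamini-Hochberg adjusted p under 0.05 over all genes, and fold changes are log2 values ± SE with 3 libraries per group. In every measured member, Rfc3 included, all 3 P2 libraries lay above all 3 CD54+CD31- libraries, also with levels scaled within the fit. The share of all genes with such a separation was not counted. All 45 fold changes were above 0, so none was lower at an unadjusted p either, and DESeq2 gave the same 44 and 0 calls. With a test for changes beyond 2-fold (glmTreat), 21 members were called higher, where 1493 of all 15461 genes were called higher and 3563 lower. With the library factor of the authors the calls on Rpa3 and Tyms were lost, and Rfc3 stood at -0.04.

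Against CD31+ cells, all 45 measured members rose in P2, 35 of them more than 2-fold, where 34.3% of all genes were called higher, 39.4% lower and 17.1% higher by more than 2-fold. The median was 1.31 against -0.13 over all genes, with Orc4 lowest at 0.55 and Orc2 highest at 2.26. With the library factor of the authors the calls on Orc4, Gins3 and Cdc7 were lost. Both comparisons use the same P2 libraries. The erythroid marker sum moved with P2 in both. In the CD31+ libraries 10 macrophage markers summed to 1262 to 1518 CPM, against 14.6 to 64.9 CPM in P2 and 126 to 232 CPM in CD54+CD31- cells, and 10 megakaryocyte markers to 677 to 1089 CPM, against 135 to 247 CPM in P2 and a mean of 121 CPM in CD54+CD31- cells. For each of the 9 macrophage markers tested, the P2 level was called below that of the CD31+ group, with a median of -3.28. Against CD54+CD31- cells the larger macrophage sum did not hold gene by gene. Of the 9, 6 were lower in CD31+ cells, 2 were not called and 1 was higher, at 5.67 on the log2 scale. The sum alone is therefore no measure of macrophage content. The part of any macrophages or megakaryocytes in the replication result was not tested. Leaving out P2 replicate 2, the library with endothelial markers and the lowest of its group in 35 of the 45 members, gave 44 and 45 calls.

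**Figure D2:**
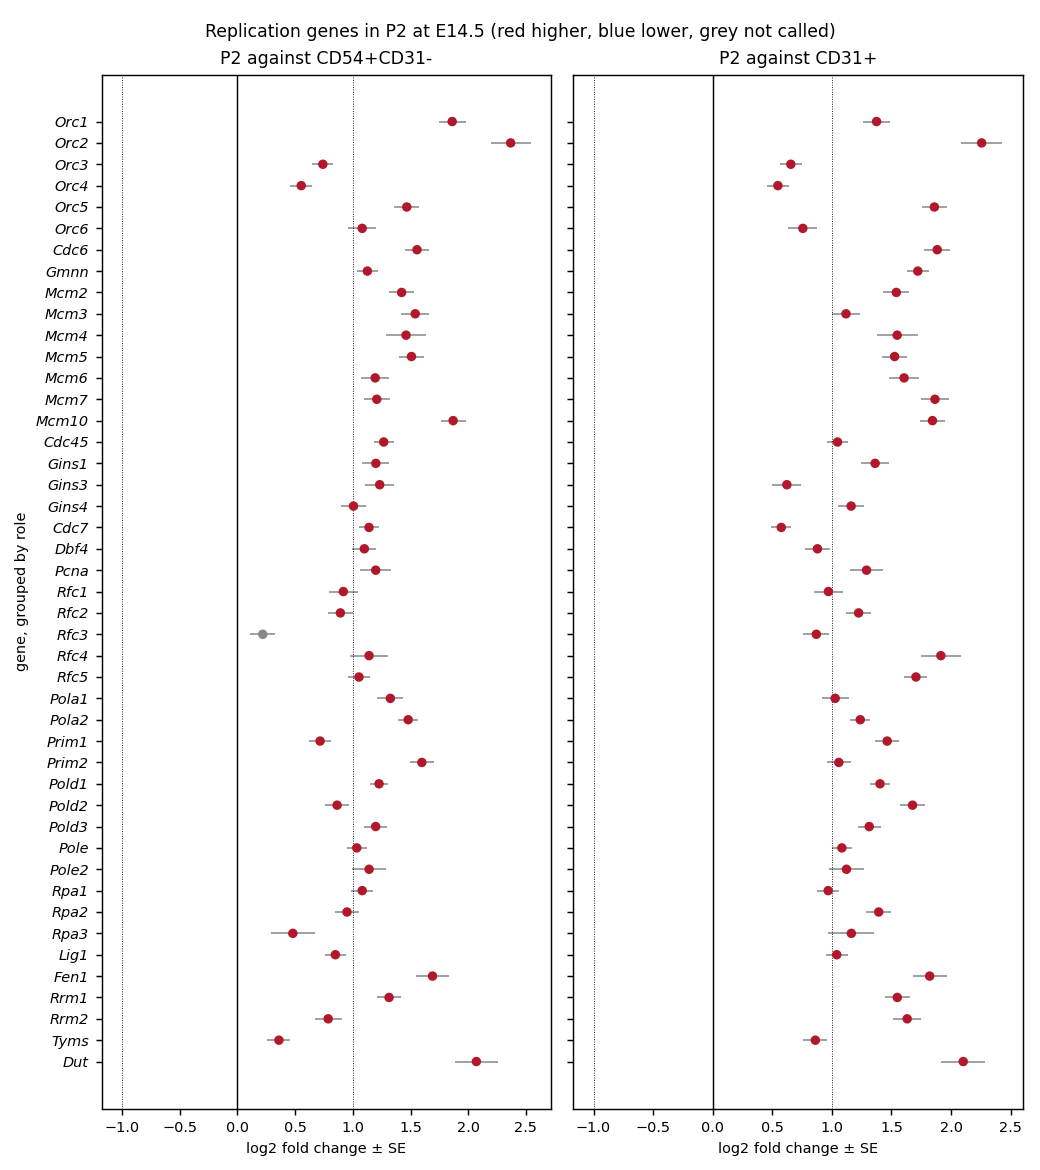
Log2 fold change (x axis, points) with standard error (bars) of each measured gene in P2 against CD54+CD31- cells (left) and against CD31+ cells (right) at E14.5, in order of role; dotted lines mark 2-fold and red points passed the test. Every point lies right of 0, and only Rfc3 on the left is grey; Orc2, Mcm10, Fen1 and Dut lie far right in both panels.

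The origin recognition complex, which marks origins and recruits Cdc6, was split in size. Orc2, the subunit with the largest rise, had 121, 109 and 117 CPM in P2, 16.1, 24.8 and 16.8 CPM in CD54+CD31- cells, 18.9, 24.6 and 19.8 CPM in CD31+ cells and 8.22, 12.5 and 9.94 CPM at E18.5. Its rise in P2 over CD54+CD31- cells was 2.37 ± 0.17 (adjusted p = 6.86e-07), with the reservation on its overlap with Nif3l1 given above. Orc1, the subunit whose level is known to follow the cell cycle, had 68.4, 57.2 and 61.9 CPM in P2, 13.5, 17.3 and 13.5 CPM in CD54+CD31- cells, 21.2, 20.7 and 21 CPM in CD31+ cells and 2.55, 5.59 and 5.25 CPM at E18.5, and rose by 1.86 ± 0.12 (adjusted p = 2.17e-07). Orc5 rose by 1.47 ± 0.11 and Orc6 by 1.08 ± 0.12. Orc3 and Orc4, core subunits of the complex, differed least, by 0.74 ± 0.09 and 0.55 ± 0.10. The ratio of Orc1 to Orc3, each per kb of exon outside other genes, was 0.938 ± 0.0850 (SD, n = 3) in P2, 0.431 ± 0.0534 in CD54+CD31- cells and 0.573 ± 0.0613 in CD31+ cells at E14.5, and 0.150 ± 0.0528 at E18.5. Since intron reads are counted, its size depends on the length used, but the comparison of groups does not.

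Among the licensing factors, Cdc6 loads the MCM ring together with the origin complex and geminin (Gmnn) blocks Cdt1 once S phase has begun. Cdc6 had 174, 155 and 182 CPM in P2, 45, 55.9 and 47.9 CPM in CD54+CD31- cells, 37.4, 43.4 and 39.5 CPM in CD31+ cells and 5.05, 11.3 and 10.6 CPM at E18.5. The P2 values did not overlap any other group, and the rise was 1.56 ± 0.11 (adjusted p = 4.23e-07) against CD54+CD31- cells and 1.88 ± 0.11 (adjusted p = 1.65e-07) against CD31+ cells. Gmnn rose by 1.13 ± 0.09 and 1.72 ± 0.09 in the same comparisons, so the inhibitor and the loader were both higher in P2.

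All 6 subunits of the MCM2-7 helicase rose in both comparisons, with estimates of more than 2-fold. The glmTreat test beyond 2-fold did not call Mcm6 against CD54+CD31- cells or Mcm3 against CD31+ cells. Mcm3 had 876, 902 and 868 CPM in P2, 234, 291 and 255 CPM in CD54+CD31- cells, 396, 359 and 306 CPM in CD31+ cells and 30.4, 55.3 and 54.1 CPM at E18.5. It was the only subunit called higher in CD31+ than in CD54+CD31- cells. Against CD54+CD31- cells the subunits rose by 1.19 (Mcm6) to 1.54 (Mcm3), and against CD31+ cells by 1.12 (Mcm3) to 1.86 (Mcm7). Summed over the 6 subunits, the level was 3693, 3424 and 3728 CPM in P2 and 1027, 1337 and 1181 CPM in CD54+CD31- cells. Per kb of exon outside other genes, the subunit means in P2 spanned 92.3 (Mcm7) to 235 CPM per kb (Mcm3), a 2.55-fold range; per kb of gene span the range was 1.85-fold and Mcm5 was lowest, so the order of subunits depends on the length used.

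The factors that convert the loaded ring into the CMG helicase rose alike in direction. Mcm10, needed for the helicase to start moving, had 311, 316 and 319 CPM in P2, 68.6, 78.6 and 74.9 CPM in CD54+CD31- cells, 83.4, 79.9 and 65.9 CPM in CD31+ cells and 7.1, 17.2 and 16.4 CPM at E18.5. The rise of Mcm10 was 1.87 ± 0.11 (adjusted p = 1.1e-07) against CD54+CD31- cells, and its P2 mean was 23.2 times its mean at E18.5, the widest span of any member. Cdc45, a subunit of the helicase, rose by 1.27 ± 0.09, and the GINS subunits Gins1, Gins3 and Gins4 by 1.20 ± 0.12, 1.23 ± 0.13 and 1.01 ± 0.11. The catalytic subunit of the DDK kinase, Cdc7, had 43.7, 40.5 and 41.7 CPM in P2, 16.4, 15.4 and 17.2 CPM in CD54+CD31- cells, 24.3, 23.8 and 25.5 CPM in CD31+ cells and 4.3, 7.61 and 7.19 CPM at E18.5. It rose by 1.14 ± 0.08, and its activating subunit Dbf4 by 1.10 ± 0.10, against CD54+CD31- cells, but by 0.58 ± 0.08 and 0.88 ± 0.10 against CD31+ cells, where neither passed 2-fold.

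The sliding clamp and its loader held the weakest member. Pcna, the clamp that tethers the polymerases, had 212, 170.2 and 215 CPM in P2, 60.6, 81.7 and 80.5 CPM in CD54+CD31- cells, 66.8, 77.9 and 67.4 CPM in CD31+ cells and 18.4, 26.3 and 23.1 CPM at E18.5, a rise of 1.20 ± 0.14 (adjusted p = 1.87e-05) in P2 over CD54+CD31- cells. The pseudogenes Pcna-ps1 and Pcna-ps2 are annotated, and how reads that match more than one place were counted is not given in the sources used here. Of the loader, Rfc1, Rfc2, Rfc4 and Rfc5 rose by 0.89 (Rfc2) to 1.14 (Rfc4). Rfc3 had 48.7, 44.4 and 44 CPM in P2, 31.4, 34.9 and 34.7 CPM in CD54+CD31- cells, 21.5, 24.4 and 19.3 CPM in CD31+ cells and 7.15, 7.94 and 7.21 CPM at E18.5. Its difference was 0.22 ± 0.11 (adjusted p = 0.0942) against CD54+CD31- cells by edgeR's quasi-likelihood test, and it was called higher, by 0.59, when libraries were scaled by total count alone, and by 0.20 (adjusted p = 0.0489) when only the 6 libraries compared were fitted. Against CD31+ cells Rfc3 rose by 0.87 ± 0.11.

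The polymerase alpha and primase genes, which lay down the primers, rose in both comparisons. Prim2, the large primase subunit, had 181, 169.9 and 165 CPM in P2, 42.5, 52 and 51.8 CPM in CD54+CD31- cells, 69.7, 70 and 76.4 CPM in CD31+ cells and 24.3, 35 and 35.3 CPM at E18.5. Prim2 rose by 1.60 ± 0.10 (adjusted p = 2.31e-07), Pola2 by 1.48 ± 0.09, Pola1, the catalytic subunit, by 1.33 ± 0.11 and Prim1, the catalytic primase subunit, by 0.72 ± 0.10 against CD54+CD31- cells. Against CD31+ cells the order differed, with Prim1 at 1.46 ± 0.10 and Prim2 at 1.06 ± 0.10.

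Polymerases delta and epsilon copy the lagging and the leading strand. Pold1, the catalytic subunit of delta, had 125, 117 and 118 CPM in P2, 41.2, 46.1 and 44.4 CPM in CD54+CD31- cells, 40.4, 38.4 and 39.5 CPM in CD31+ cells and 10.8, 13.6 and 13.2 CPM at E18.5, a rise of 1.23 ± 0.08 (adjusted p = 2.86e-07) over CD54+CD31- cells. The other 4 genes of this role rose by 0.86 (Pold2) to 1.20 (Pold3) in that comparison, and the estimates of all 5 passed 2-fold against CD31+ cells. The glmTreat test beyond 2-fold did not call Pole and Pole2 against CD31+ cells. Rpa1, the large subunit of the protein that coats single strands, had 267, 242 and 269 CPM in P2, 94.5, 113 and 107 CPM in CD54+CD31- cells, 111, 123 and 112 CPM in CD31+ cells and 40.4, 44.7 and 42.9 CPM at E18.5. Rpa1 rose by 1.08 ± 0.09 and Rpa2 by 0.95 ± 0.10, while Rpa3, the smallest subunit, rose by 0.48 ± 0.19 (adjusted p = 0.0437). The call on Rpa3 is weak: its values were 22.8, 18.1 and 21.5 CPM in P2 and 10, 14.3 and 14 CPM in CD54+CD31- cells, and it was lost without either P2 replicate 1 (adjusted p = 0.14), P2 replicate 3, CD54+CD31- replicate 1, CD54+CD31- replicate 3 or CD31+ replicate 3.

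Fen1, which trims the flaps of Okazaki fragments, had 257, 236 and 254 CPM in P2, 55.7, 82.5 and 60.4 CPM in CD54+CD31- cells, 57.9, 67.2 and 58.9 CPM in CD31+ cells and 8.06, 16.5 and 16.7 CPM at E18.5. It rose by 1.69 ± 0.14 (adjusted p = 2.02e-06), and the ligase Lig1, which seals the fragments, by 0.85 ± 0.09, in P2 over CD54+CD31- cells. In deoxynucleotide synthesis the largest rise was that of Dut, which removes dUTP. Dut had 421, 363 and 419 CPM in P2, 63.8, 99.9 and 81.6 CPM in CD54+CD31- cells, 67.8, 100.2 and 75.3 CPM in CD31+ cells and 16.2, 21 and 22.3 CPM at E18.5, a rise of 2.07 ± 0.19 (adjusted p = 3.19e-06) over CD54+CD31- cells. Of the ribonucleotide reductase subunits, Rrm1 rose by 1.31 ± 0.10 and Rrm2, the S-phase subunit, by 0.79 ± 0.12, and Tyms, the thymidylate synthase, by 0.36 ± 0.10 (adjusted p = 0.00801). Tyms had 101, 94.2 and 94.2 CPM in P2 and 58.9, 68.9 and 65.7 CPM in CD54+CD31- cells, so its groups lay close but did not overlap. Against CD31+ cells Rrm2 rose by 1.63 ± 0.12 and Tyms by 0.86 ± 0.10.

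Between CD31+ and CD54+CD31- cells of E14.5 the members differed in both directions and by small amounts. Of the 48, 9 were higher in CD31+ cells, 15 were lower, 21 did not pass the test and none differed by more than 2-fold; over all genes 31.7% were higher, 34% lower, and 20.4% and 18.9% were higher and lower by more than 2-fold. The median was -0.12, against -0.03 over all genes. The macrophage and megakaryocyte sums given above were also higher in CD31+ than in CD54+CD31- cells. Gene by gene, 9 of 10 megakaryocyte markers were higher. Of 9 macrophage markers tested, however, 6 were lower and 1 higher, with a median of -1.25. Of 9 erythroid markers tested, 5 were lower and 1 higher, with a median of -0.52, and all 10 mesenchymal markers were lower. CD54+CD31- replicate 2, with the largest erythroid sum of its group (618 CPM), was the highest of its group in 42 of the 45 members. The part of these cell types was not tested. In the clamp and loader, Rfc2, Rfc3, Rfc4 and Rfc5 were lower, from -0.33 ± 0.11 to -0.77 ± 0.16, and none was higher. With scaling by total count these calls were lost, Rfc2 turned to 0.16, and Pcna (0.40, adjusted p = 0.034) and Rfc1 (0.44, adjusted p = 0.0138) were called higher. In deoxynucleotide synthesis Rrm2 was lower, at -0.85 ± 0.12 (adjusted p = 0.000109), and so was Tyms, at -0.50 ± 0.10. The lower genes also included Orc5, both licensing genes (Cdc6 and Gmnn), Mcm6, Mcm7, Prim1, Pold2, Rpa2 and Rpa3, of which Orc5, Cdc6, Mcm6 and Rpa2 turned above 0 with scaling by total count. The higher genes were Orc1, Orc6, Mcm3, Cdc45, Gins3, Cdc7, Pola1, Pola2 and Prim2, led by Gins3 at 0.61 ± 0.12 (adjusted p = 0.00151) and Cdc7 at 0.56 ± 0.08 (adjusted p = 0.00017). Thus Prim1 and Prim2, partners in primase, differed in opposite directions, by -0.75 ± 0.10 and 0.54 ± 0.10. With scaling by total count the Prim1 call was lost (-0.25), as were those on Gmnn, Mcm7, Rpa3 and Tyms. On the higher side, Orc6, Cdc45, Pola1 and Pola2 each lost their call in several of the fits that left out 1 library. Rrm2 had 64, 78.6 and 73.1 CPM in CD31+ and 112, 145 and 125 CPM in CD54+CD31- cells, and Gins3 had 12.7, 14.4 and 12.9 and 7.63, 9.86 and 8.33 CPM; neither overlapped. The count of higher genes was fragile: it was 4 to 8 when 1 library was left out, with 5 without P2 replicate 1, CD54+CD31- replicate 1 or CD31+ replicate 3 and 4 without CD31+ replicate 2, and with scaling by total count 28 were higher and 2 lower. With that scaling, 71.4% of the calls over all genes were on the higher side, against 48.3% in the reported fit, and the median of all genes moved to 0.46.

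**Figure D3:**
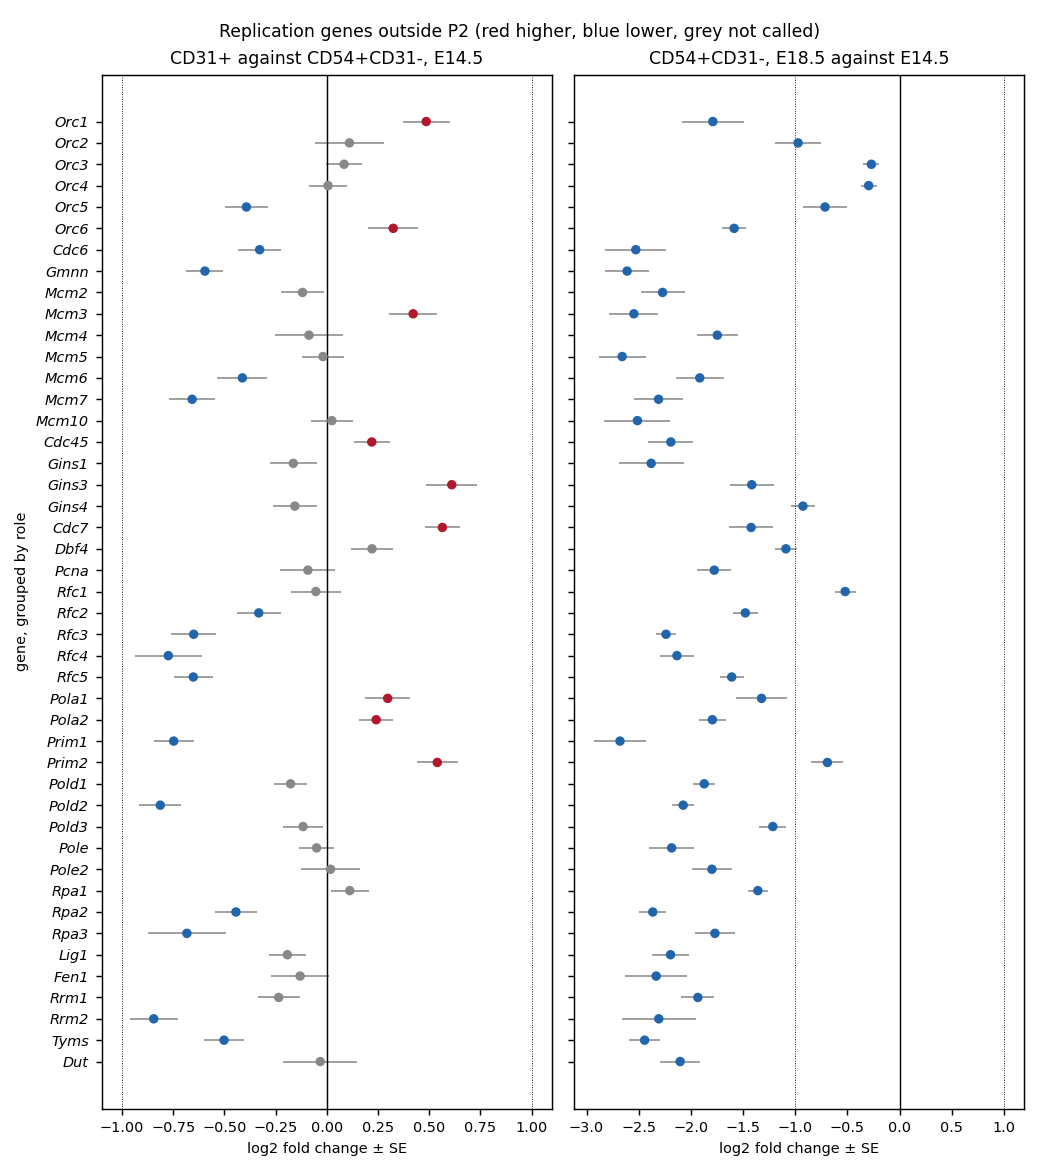
Log2 fold change (x axis, points) with standard error (bars) of each measured gene in CD31+ against CD54+CD31- cells at E14.5 (left) and in CD54+CD31- cells at E18.5 against E14.5 (right), in order of role; red points were called higher, blue lower and grey points did not pass. On the left the points lie on both sides of 0 and within the dotted 2-fold lines, and on the right all 45 are blue, from -2.68 (Prim1) to -0.27 (Orc3).

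In CD54+CD31- cells, all 45 measured members were lower at E18.5 than at E14.5, and 38 were lower by more than 2-fold. Of all 15863 genes tested, 33.5% were lower, 18.9% lower by more than 2-fold and 35.9% higher. The median was -1.87, against 0.03 over all genes. In every measured member the 3 E18.5 libraries lay below the 3 E14.5 libraries, with either scaling of the levels, so none was higher at an unadjusted p, nor with DESeq2. How many of all genes separated in this way was not counted. Without E18.5 replicate 1, the library with the most lung markers and the lowest of its group in 39 of the 45 members, 45 members were still called lower, 38 of them by more than 2-fold, with a median of -1.80. Over all 16074 genes tested in that fit, 35.9% were lower and 36.8% higher, with a median of 0.02. Replicates 2 and 3, which it kept, still held 9889 and 10182 CPM of lung epithelial markers. In the fit with all 3 E18.5 libraries, all 10 lung, all 10 mesenchymal and all 10 endothelial markers were called higher, with a median of 2.15 for the endothelial list. Of the erythroid markers, 7 of 9 tested were called lower, with a median 4.01-fold fall, and their sum went from 390 to 618 CPM at E14.5 to 139 to 265 CPM at E18.5. Of 10 hepatoblast markers, 5 were called lower and 1 higher. Without replicate 1, 9 of 9 erythroid markers and 8 of 10 hepatoblast markers were called lower. The part of these cell types in the fall of the members was not tested. Age and any tissue carried over with it at E18.5 cannot be told apart in this design. The same E14.5 libraries serve as the base here and in the comparisons above.

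The largest single falls were those of Prim1, Mcm5 and Gmnn. Prim1 had 46, 56.9 and 52 CPM at E14.5 and 5.39, 9.11 and 10.8 CPM at E18.5, and fell by 2.68 on the log2 scale (SE 0.24, adjusted p = 0.000118). Mcm5 had 138, 178 and 153 and 17.7, 31.9 and 28 CPM at the 2 ages, a change of -2.66 ± 0.22 (adjusted p = 8.77e-05). Gmnn changed by -2.61 ± 0.21, Mcm3 by -2.55 ± 0.23, Cdc6 by -2.53 ± 0.29, Mcm10 by -2.51 ± 0.32 and Tyms by -2.44 ± 0.15. All 6 MCM2-7 subunits fell by between 1.75 (Mcm4) and 2.66 (Mcm5), and their sum went from 1027, 1337 and 1181 CPM to 182, 316 and 304 CPM. Without E18.5 replicate 1, Prim1 changed by -2.46, Mcm5 by -2.46, Gmnn by -2.44, Mcm3 by -2.33, Cdc6 by -2.26, Mcm10 by -2.22 and Tyms by -2.32, and the MCM2-7 subunits by -2.46 (Mcm5) to -1.59 (Mcm4).

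The smallest falls were in the origin complex. Orc3 had 55.8, 62 and 61.9 CPM at E14.5 and 49.9, 52.3 and 53.1 CPM at E18.5, a change of -0.27 ± 0.08 (adjusted p = 0.0175), and Orc4 had 39.6, 43 and 41.6 and 33.1, 35.5 and 36.8 CPM, a change of -0.30 ± 0.08 (adjusted p = 0.0118). With scaling by total count both turned to higher, at 0.14 and 0.12, without passing the test, and the median of all genes moved to 0.45, with 68.4% of the calls on the higher side against 51.7% in the reported fit. With that scaling the calls on Orc2, Orc5, Rfc1 and Prim2 were lost as well, and with the library factor of the authors those on Orc3, Orc4 and Orc5. The Orc3 call was also lost without E18.5 replicate 2 and without E14.5 replicate 2 or 3, and the Orc5 call without E14.5 replicate 2 or 3. Of the other 5 members that fell less than 2-fold, Orc2 changed by -0.97 ± 0.22, Orc5 by -0.71 ± 0.21, Gins4 by -0.93 ± 0.11, Rfc1, the large loader subunit, by -0.52 ± 0.10 and Prim2 by -0.69 ± 0.15. Orc6 and Orc1 differed from the rest of their complex in size, with -1.59 ± 0.11 and -1.79 ± 0.29; the differences between subunits were not tested. When E18.5 replicate 1 was left out, these values ranged from -0.27 (Orc3) to -0.99 (Gins4) for the 7 members with small falls, and were -1.61 for Orc6 and -1.53 for Orc1, all still called lower. Rrm2 fell by 2.31, and by 1.99 without replicate 1, but its E18.5 values were 13, 34.4 and 33.5 CPM, so that replicate 1 held less than the other libraries, and the ratio of Rrm2 to Rrm1 per kb was 0.920 there against 1.69 and 1.72.

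Other replication genes outside the 48 moved in the same directions. For the lists here and below, the shares of all genes called higher and lower were 33.8% and 36.1% in P2 against CD54+CD31- cells. They were 34.3% and 39.4% against CD31+ cells, 31.7% and 34% in CD31+ against CD54+CD31- cells, and 35.9% and 33.5% at E18.5. Of 35 such genes (34 tested), 32 were higher and 1 lower in P2 than in CD54+CD31- cells, with a median of 1.06, and 32 were higher and 1 lower than in CD31+ cells, with a median of 1.26. Recql4, a helicase that acts in origin firing, led with 2.40 ± 0.14 (adjusted p = 1.01e-07), followed by Dscc1, a subunit of an alternative clamp loader, at 1.91 ± 0.20, Top2b, a topoisomerase, at 1.67 ± 0.10 and Chaf1b, a histone chaperone, at 1.65 ± 0.11. The exception in both comparisons was Pold4, the small subunit of polymerase delta, at -1.27 ± 0.23 and -1.34 ± 0.23. Against CD31+ cells Dna2, a nuclease of Okazaki fragments, rose by 2.02 ± 0.08 and Wdhd1, which links the helicase to polymerase alpha, by 1.82 ± 0.09. Between CD31+ and CD54+CD31- cells 5 were higher and 10 lower. At E18.5 31 were lower and 2 higher, with a median of -1.74; Dna2, Timeless, Uhrf1 and Dscc1 fell most, by 2.76, 2.72, 2.70 and 2.55, and Top2b and Mcm9 rose by 0.65 ± 0.13 and 0.47 ± 0.13. When E18.5 replicate 1 was left out, the counts were again 31 and 2, with a median of -1.68; Dna2, Timeless, Uhrf1 and Dscc1 then changed by -2.46, -2.48, -2.49 and -2.31, and Top2b and Mcm9 by 0.56 and 0.36. Of Top2b and Mcm9, 68.4% and 77.9% of the exon bases lay outside other genes.

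Nucleotide metabolism genes outside the 48 were less uniform. Of 42 (40 tested in E14.5 cells), 30 were higher and 4 lower in P2 than in CD54+CD31- cells, with a median of 0.84. Prps1 and Prps2, which make the ribose donor of nucleotides, rose by 2.84 ± 0.16 and 2.62 ± 0.20. The 4 that fell were Adssl1 at -3.79 ± 0.34, Ctps2, a CTP synthase, at -3.67 ± 0.09, Shmt1, a serine hydroxymethyltransferase of the folate cycle, at -2.85 ± 0.09 and Dguok, the mitochondrial deoxyguanosine kinase, at -0.69 ± 0.11. Against CD31+ cells 32 were higher and 4 lower, with a median of 1.49; Mthfd1 and Pfas, enzymes of the folate cycle and of purine synthesis, rose by 2.79 ± 0.09 and 2.30 ± 0.09, and Adssl1, Impdh1, Ctps2 and Ada were lower. In CD31+ against CD54+CD31- cells 26 of these genes were lower and 8 higher, with a median of -0.52, led by Shmt1 at -3.22 ± 0.09 and, on the higher side, Ada, the adenosine deaminase, at 2.81 ± 0.13.

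At E18.5, 30 of 39 tested nucleotide genes fell and 3 rose, with a median of -1.28. Mthfd2, Dctd and Shmt1, of the folate and thymidylate routes, fell by 2.78, 2.71 and 2.67. The 3 that rose were Prps2 (5.66-fold, adjusted p = 0.00028), Samhd1, which degrades deoxynucleotides, at 1.94 ± 0.21 (adjusted p = 0.000246) and Rrm2b, the reductase subunit used outside S phase, at 1.37 ± 0.17 (adjusted p = 0.00043). Without E18.5 replicate 1, 30 fell and 3 rose, with a median of -1.16; Mthfd2, Dctd and Shmt1 changed by -2.60, -2.53 and -2.37, Prps2 rose 4.71-fold, and Samhd1 and Rrm2b changed by 1.67 and 1.27. Rrm2b had 3.8, 4.22 and 5.16 CPM at E14.5 and 13, 12 and 10.5 CPM at E18.5. The ratio of Rrm2 to Rrm2b, each per kb of exon outside other genes, was 123 ± 26.8 (SD, n = 3) in P2, 96.7 ± 17.0 in CD54+CD31- cells and 33.4 ± 4.52 in CD31+ cells of E14.5, and 7.74 ± 3.89 in CD54+CD31- cells of E18.5. The E18.5 ratio was 3.28 in replicate 1 and 9.46 and 10.5 in replicates 2 and 3. As the counts include intron reads, the size of this ratio depends on the length used, which does not alter the comparison of groups.

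**Figure D4:**
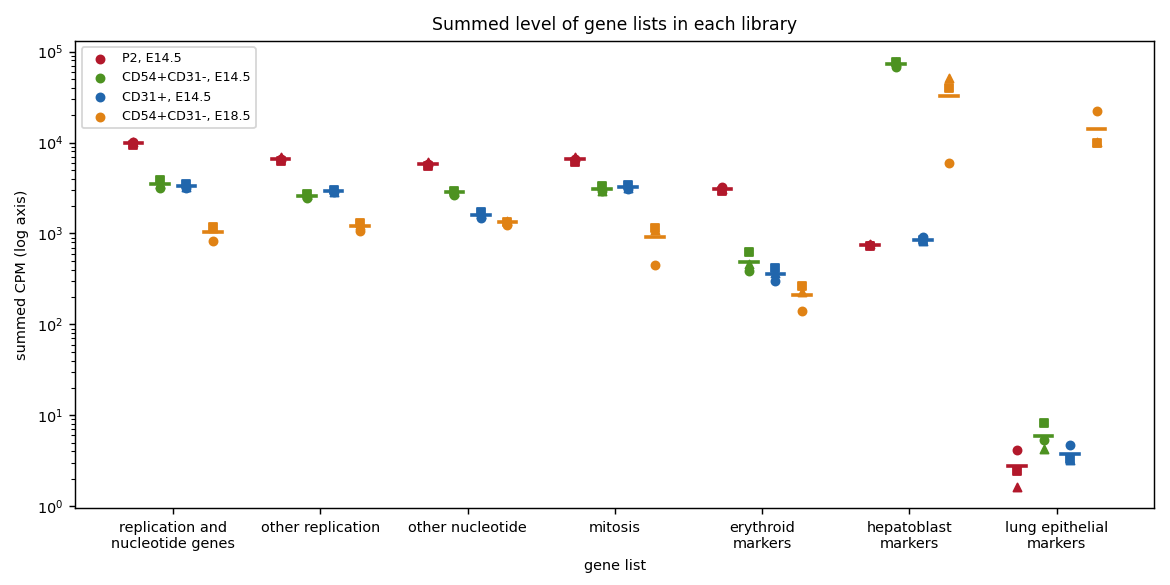
Summed level (y axis, CPM on a log axis) of the 48 genes, of 3 related lists and of 3 marker lists in each library; circles, squares and triangles are replicates 1, 2 and 3 and bars are group means. The sum of the 48 genes is highest in P2 (9278 to 10107 CPM) and lowest at E18.5 (820.0 to 1186 CPM), where replicate 1 is also the lowest for hepatoblast markers (5964 CPM) and the highest for lung epithelial markers (22166 CPM).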

How the data were processed

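The authors trimmed single-end reads with cutadapt 1.11, aligned them to GRCm38 with STAR 2.5.0a and counted them per gene with featureCounts; the strand setting and the handling of multimapping reads are not given in the sources used here. The authors deposited raw counts and, beside them, counts divided by a library factor (used as a score, for the factor only). Their counts behave as unstranded counts over whole gene spans. Levels are CPM with TMM factors over 12 libraries. Differences were tested on the raw counts with edgeR 4.0.16 (R 4.3.3; filterByExpr, TMM, quasi-likelihood, Benjamini-Hochberg adjusted p under 0.05), with the 9 E14.5 libraries in 1 fit and the 6 CD54+CD31- libraries in another, without a replicate block. Scripts were tested on simulated data. The members, lists and naming rule (in each role, the member with the largest change in P2 over CD54+CD31- cells, and from each other list up to 4 leading calls and each exception) were chosen with earlier results of these data known. Replicates correlated in deviation by number in CD31+ and CD54+CD31- cells (0.34, 0.26 and 0.14), which pairs them by the limit of 0.1. No replicates were duplicates. Alternatives covered scaling, filter, test, libraries, block and leaving out each library.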

Additional observations from a re-analysis of the deposited data

How the results depend on the processing

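The direction of the members' median was kept under every alternative run in P2 against either population and at E18.5 against E14.5, where the fit of only the 6 libraries compared is the reported one. The authors' factor gave a median of 0.93 in P2 against CD54+CD31- cells, 0.94 against CD31+ cells and -1.64 at E18.5, total counts gave 1.56 and, at E18.5, -1.46, and 1 fit over all 12 libraries gave -2.06 at E18.5; the median over all genes moved with the factor, to -0.27, -0.50 and 0.27. With the authors' factor 38.2%, 33.9% and 60.9% of all calls were on the higher side, against 48.3%, 46.6% and 51.7% in the reported fits, and with total counts 59.9% in P2 against CD54+CD31- cells. A test beyond 2-fold called 21 and 26 members higher in P2, where 1493 and 1783 of all 15461 genes were called higher. In CD31+ against CD54+CD31- cells it called 0 members higher and 0 lower, where 2354 of all genes were higher and 2236 lower. That last comparison depended most on scaling: total counts gave 28 higher, 2 lower and a reversed median of 0.38, with Orc5 at 0.10, Cdc6 at 0.17, Mcm6 at 0.0815, Rfc2 at 0.16 and Rpa2 at 0.0506, none called; no filter on low counts gave 5 higher and 1 fit over all libraries 4. At E18.5 total counts turned Orc3 to 0.14 and Orc4 to 0.12. Leaving out 1 library gave 4 to 8 higher and 13 to 19 lower members in CD31+ against CD54+CD31- cells, 43 to 44 higher in P2 against CD54+CD31- cells, 45 against CD31+ cells and 43 to 45 lower at E18.5. With the replicate number as a block, 44 and 45 members were higher in P2, 9 higher and 15 lower in CD31+ cells and 45 lower at E18.5, so the block changed no count. Lowest member counts of 126 to 1022 per library and groups of 3 libraries limit precision, as do intron reads within the counts, the 3 members at 0 and the mixed E18.5 gate. Lists and named genes without E18.5 replicate 1, and levels scaled within each fit, were added after seeing the data; without that replicate no call on the members or the other replication, nucleotide, mitosis and E2F and RB genes was lost.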

Other observations

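The mitosis genes, a list of 20 regulators and motors of cell division, were read beside the replication genes. Of the 19 tested, 17 were higher and none lower in P2 than in CD54+CD31- cells, at a median of 0.75 on the log2 scale, and 15 were higher and none lower than in CD31+ cells, with a median of 0.82 (edgeR's quasi-likelihood test, 3 libraries per group); all 19 fold changes were above 0 in both. Cenpe, a kinetochore motor, rose by 1.13 ± 0.08 and Ccnb1, a mitotic cyclin, by 1.08 ± 0.13 over CD54+CD31- cells. In CD31+ against CD54+CD31- cells 7 were higher, among them Ndc80 at 0.78 ± 0.13, and 6 lower, among them Ccnb2 at -0.68 ± 0.16. These are 35% and 30% of the 20, near the 31.7% and 34% of all genes. All 19 fell in CD54+CD31- cells from E14.5 to E18.5, with a median of -2.26; Aurka and Cdc20 fell by 2.78 and 2.77. Without E18.5 replicate 1 all 19 were still lower, with a median of -2.03, Aurka at -2.47 and Cdc20 at -2.57. Their summed level at E18.5 was 451 CPM in replicate 1 and 1161 and 1104 CPM in replicates 2 and 3. Among promoter windows, the CCAAT box was present for 15 of 17 mitosis genes (88.2%) and the E2F words for 1 of 17 (5.88%).

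The E2F and RB genes, transcription factors and pocket proteins that govern entry into S phase, moved in both directions. Of 13, 11 were higher and 1 lower in P2 than in CD54+CD31- cells; E2f4 rose by 1.85 ± 0.11, Tfdp1 by 1.39 ± 0.09, and E2f5 changed by -0.56 ± 0.11. Against CD31+ cells 9 were higher and 2 lower, the lower being E2f7 at -1.57 ± 0.12 and Rb1 at -0.55 ± 0.13. In CD31+ against CD54+CD31- cells 5 were higher (38.5%), led by E2f7 at 2.02 ± 0.13 and Rb1 at 1.78 ± 0.13. There 3 were lower (23.1%), where 31.7% of all genes were higher and 34% lower. At E18.5 8 fell (61.5%, against 33.5% of all genes), led by E2f8 at -2.35 ± 0.37. The 5 that rose (38.5%, near the 35.9% of all genes) were Rbl2 at 1.55 ± 0.13, Rb1 at 0.63 ± 0.16, Tfdp2, E2f2 and E2f7. Without E18.5 replicate 1 the counts were again 8 and 5, with E2f8 at -2.02, Rbl2 at 1.41 and Rb1 at 0.73. Of Rb1, Rbl2 and E2f7, 40.3%, 60.5% and 69.8% of the exon bases lay outside other genes.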
